A study of Mus musculus with 4 samples.

Results

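A set of 10 heat shock genes was followed in 4 adult mouse hearts. The genes were chosen by name as the rows of the deposited expression table whose gene symbol was one of 10 listed symbols. Of the 55401 genes in the table, 10 matched, each with a single row. Their identifiers are ENSMUSG00000091971.3 (Hspa1a), ENSMUSG00000090877.3 (Hspa1b), ENSMUSG00000021270.13 (Hsp90aa1), ENSMUSG00000029657.15 (Hsph1), ENSMUSG00000005483.10 (Dnajb1), ENSMUSG00000015656.17 (Hspa8), ENSMUSG00000004951.10 (Hspb1), ENSMUSG00000036854.14 (Hspb6), ENSMUSG00000006221.7 (Hspb7) and ENSMUSG00000032060.10 (Cryab). Of these, 5 are heat-inducible chaperone genes (Hspa1a, Hspa1b, Hsp90aa1, Hsph1 and Dnajb1), and 5 are expressed in unstressed muscle (Hspa8, Hspb1, Hspb6, Hspb7 and Cryab). The hearts came from 8-week-old mice, 2 wild type and 2 heterozygous for the R567W point mutation of Ctcf (Ctcf +/R567W), with 1 RNA-seq library per mouse from polyadenylated RNA. CTCF is a zinc-finger protein that binds DNA and shapes chromatin loops. The mutation was introduced by CRISPR/Cas9 in C57BL/6N mice, and neither genotype received a further treatment according to the labels. The heterozygous mice carry 1 mutant and 1 normal allele in every cell, so the mutation was not limited to the heart. The sex of the mice and the part of the heart taken were not given in the sources used here.

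Heat shock proteins are molecular chaperones that bind unfolded or partly folded proteins. HSP70 proteins work in cycles of ATP binding and hydrolysis, HSP40 (J-domain) proteins deliver clients to them and stimulate hydrolysis, HSP110 proteins release the nucleotide, and HSP90 proteins receive clients at a later stage of folding. Small heat shock proteins hold unfolded proteins without using ATP and are abundant in heart muscle, where several bind the cytoskeleton. The inducible genes are switched on by the transcription factor HSF1, which binds repeated units of the letters GAA in alternating orientation, called heat shock elements.

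Expression was measured as TPM, a length-corrected share of the library, so levels of different genes can be set side by side. Scaled TPM is TPM divided by a factor for each library, since in the TPM as deposited the median log2 difference of all tested genes between the genotypes was -0.35 and not near 0. A gene was tested when its mean TPM over the 4 hearts was at least 1, which 10036 genes passed. Of the 10 heat shock genes, 8 passed, and Hspa1a and Hspa1b did not. TPM keep no read counts, so the depth of the libraries is unknown. With 2 mice a group, an exact permutation test of a single gene cannot go below p = 0.333, and the p-values given are from limma fitted across all tested genes, two-sided, with Benjamini-Hochberg adjustment. They measure only the spread between these mice. The targeted gene Ctcf had 6.12 and 6.02 scaled TPM in wild-type hearts against 7.51 and 5.76 in heterozygous hearts, which says nothing about a point mutation. Cardiomyocyte markers were high in all 4 hearts, with a summed level of 14764 to 15621 scaled TPM in wild-type and 13939 to 16459 in heterozygous hearts.

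The promoters of the heat shock genes are shown first because inducible heat shock genes are known to carry a shared recognition sequence. Promoter windows in the RefSeq table (build GRCm38.p6, the reference on which mm10 is based) matched 7 of the 10 genes, and Hsp90aa1, Hspa8 and Cryab had none. Each sequence below is the 250 bases before the annotated start, read 5′ to 3′ on the strand of the gene. Capitals mark pairs of heat shock element units, written GAANNTTC or TTCNNGAA. Both patterns are their own reverse complement, so a single search covers both strands, and they can overlap each other by 3 letters, which no upstream match here does. The first 3 sequences belong to inducible genes, and the last pair to small heat shock genes with and without a match. The sequences are those of Hspa1a (chr17:34972157-34972406, minus strand), Hspa1b (chr17:34959239-34959488, minus strand), Hsph1 (chr5:149636337-149636586, minus strand), Hspb1 (chr5:135887669-135887918, plus strand) and Hspb7 (chr4:141420529-141420778, plus strand).
Hspa1a: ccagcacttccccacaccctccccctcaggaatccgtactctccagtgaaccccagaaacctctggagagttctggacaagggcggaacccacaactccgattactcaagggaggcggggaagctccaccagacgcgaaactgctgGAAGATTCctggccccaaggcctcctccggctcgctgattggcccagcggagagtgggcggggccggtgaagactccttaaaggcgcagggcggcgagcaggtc
Hspa1b: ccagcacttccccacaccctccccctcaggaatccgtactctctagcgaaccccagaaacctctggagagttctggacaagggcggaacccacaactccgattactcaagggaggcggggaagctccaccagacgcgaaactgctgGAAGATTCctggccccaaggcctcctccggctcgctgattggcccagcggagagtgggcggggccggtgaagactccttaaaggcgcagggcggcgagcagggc
Hsph1: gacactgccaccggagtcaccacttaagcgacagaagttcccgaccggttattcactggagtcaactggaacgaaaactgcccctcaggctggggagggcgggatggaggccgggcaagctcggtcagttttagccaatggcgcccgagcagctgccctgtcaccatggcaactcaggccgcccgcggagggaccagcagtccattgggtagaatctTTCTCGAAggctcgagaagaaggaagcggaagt
Hspb1: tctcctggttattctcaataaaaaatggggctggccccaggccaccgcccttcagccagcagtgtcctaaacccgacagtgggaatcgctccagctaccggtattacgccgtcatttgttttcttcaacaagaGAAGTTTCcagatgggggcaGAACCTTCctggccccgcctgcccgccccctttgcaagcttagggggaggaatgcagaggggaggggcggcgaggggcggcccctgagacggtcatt
Hspb7: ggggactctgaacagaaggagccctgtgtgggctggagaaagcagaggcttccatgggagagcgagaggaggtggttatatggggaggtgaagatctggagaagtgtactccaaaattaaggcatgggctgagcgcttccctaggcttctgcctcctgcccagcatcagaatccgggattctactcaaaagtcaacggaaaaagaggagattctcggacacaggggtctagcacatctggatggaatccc

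A match to either pattern was found in 6 of the 10 windows of the 7 genes, against 12.8% of 32851 windows of the same length over all genes. Counted by gene, 5 of the 7 had a match. The 6 windows are not separate, since both Hsph1 windows overlap and hold the same match, and those of Hspa1a and Hspa1b are near-identical. GAANNTTC alone was present in 6.69% and TTCNNGAA in 7.17% of all windows. Hspa1a and Hspa1b each held 1 match, at positions -104 to -97 from the start, and their windows were identical at 247 of 250 positions (98.8%). Hsph1 held 1 match, at positions -33 to -26 from the first of its annotated starts. Hspb1 held 2 matches, at positions -117 to -110 and -97 to -90. Hspb6 held 1 match, at positions -120 to -113 from the second of its 2 annotated starts, and none before the first. Neither Dnajb1 nor Hspb7 held a match, which says only that these letters are not in those windows. A match of letters is a description and was not measured as binding in these hearts.

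The levels of the 10 genes covered more than 3 powers of 10 within a heart, and the constitutive genes stood above the inducible ones. In order of the wild-type mean, the genes were Cryab, Hspa8, Hspb6, Hspb1, Hspb7, Hsp90aa1, Hsph1, Dnajb1, Hspa1a and Hspa1b. Cryab alone made up 67.9% and 67.6% of the summed scaled TPM of the 10 genes in wild-type hearts against 64.2% and 69.8% in heterozygous hearts. Over the 4 hearts the ranges of neighbours did not overlap between Cryab and Hspa8, Hspa8 and Hspb6, Hspb7 and Hsp90aa1, Hsph1 and Dnajb1, or Dnajb1 and Hspa1a. The other neighbours could not be ordered by their ranges. Hspb6 was above Hspb1 in 1 of 4 hearts, and Hsp90aa1 was above Hsph1 in 2 of 4. Hspb1 was above Hspb7, and Hspa1a above Hspa1b, within each of the 4 hearts, although their ranges overlapped.

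**Figure D1:**
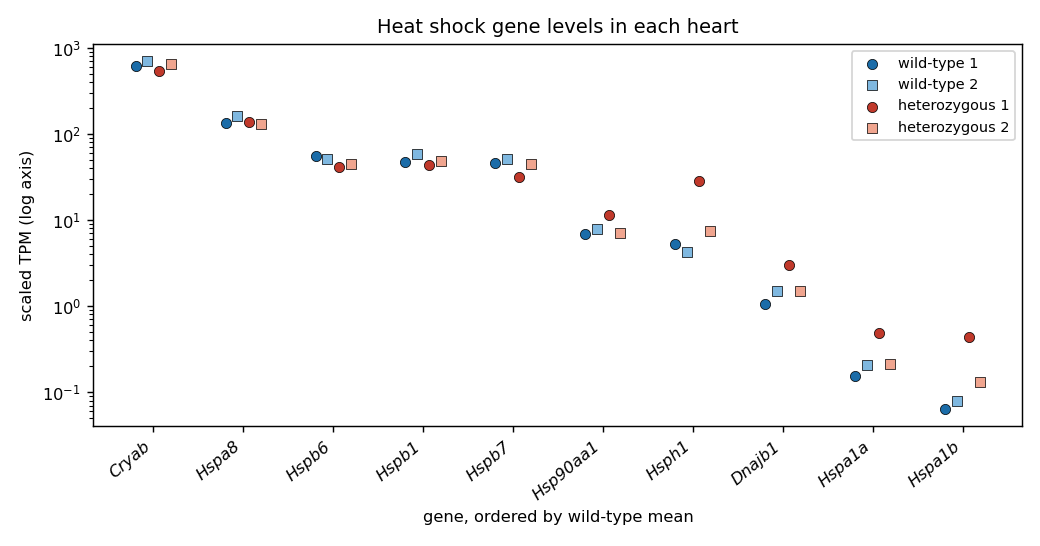
Scaled TPM (log axis) of the 10 genes, ordered by wild-type mean, with 1 point per heart (blue, wild type; red, heterozygous; circles, replicate 1; squares, replicate 2). The constitutive genes lie between 31.5 and 696.5, and the inducible genes between 0.0643 and 28.0, with heterozygous heart 1 the highest point for each of the 5 inducible genes (in the TPM as deposited, for all but Hsp90aa1).

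Inducible genes were compared between genotypes first. All 5 were highest in heterozygous heart 1, a pattern that 30.4% of all tested genes shared, except that Hsp90aa1 was highest in wild-type heart 2 in the TPM as deposited. None of the 3 that were tested passed an adjusted p of 0.05 with a fold over 1.5. By that rule, 2 of 10036 genes (0.0199%) were called over the whole table, and 0 of the 8 tested heat shock genes. At an unadjusted p under 0.05 the numbers were 1 of 8 heat shock genes (Hsph1) and 1224 of all tested genes (12.2%).

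Hsph1 (HSP110; chr5:149614287-149636376, minus strand) encodes the exchange factor that recharges HSP70 and had the largest log2 fold change among the 8 tested genes. All gene coordinates are in mm10. It had 5.31 and 4.28 scaled TPM in wild-type hearts against 28.0 and 7.55 in heterozygous hearts. Both heterozygous hearts lay above both wild-type hearts, and heterozygous heart 1 was 3.71 times heterozygous heart 2. The means were 4.80 ± 0.732 (SD, n = 2) and 17.8 ± 14.5 (SD, n = 2), and the log2 fold change, on the log2(scaled TPM + 1) scale of all fold changes here, was 1.45 ± 0.51 (SE; limma, adjusted p = 0.368). The size of the difference rested on heterozygous heart 1, since the log2 fold change was 0.57 without it (limma, adjusted p = 0.258) and 2.33 without heterozygous heart 2, when the gene passed the rule (limma, adjusted p = 0.0342). Of the 10036 tested genes, Hsph1 ranked 67 by its range over the 4 hearts and 51 by the gap between the 2 heterozygous hearts. No 50-base stretch of its transcripts is shared with another gene, so its reads could be assigned without a near-identical copy.

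Hspa1a and Hspa1b encode the major stress-inducible HSP70 and are neighbouring genes on chromosome 17, 9951 bases apart (chr17:34969190-34972156 and chr17:34956436-34959238, both minus strand). Both were close to the bottom of what TPM can show. Hspa1a had 0.156 and 0.206 scaled TPM in wild-type hearts against 0.489 and 0.210 in heterozygous hearts. The genotypes were apart by a hair for Hspa1a, and in the TPM as deposited (0.17, 0.26, 0.40 and 0.19) they overlapped. Hspa1b had 0.0643 and 0.0794 scaled TPM in wild-type hearts against 0.440 and 0.133 in heterozygous hearts, all below 1, and here the genotypes were apart on both scales. The means were 0.181 ± 0.0354 and 0.350 ± 0.197 for Hspa1a, and 0.0719 ± 0.0106 and 0.287 ± 0.217 for Hspa1b (SD, n = 2 each). Since both missed the minimum level, they were fitted only with the filter removed, a setting read for them after their values were seen, and the log2 fold changes were 0.18 ± 0.12 (SE; limma, adjusted p = 0.702) and 0.25 ± 0.12 (SE; limma, adjusted p = 0.642). The genes cannot be kept fully apart, because 58.8% of the 50-base stretches of Hspa1a are also in Hspa1b and 62.3% of those of Hspa1b are in Hspa1a. Summed as a single gene, the pair gave a log2 difference of 0.36, with no test since the sum also missed the minimum level.

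Dnajb1 (HSP40; chr8:83608193-83612653, plus strand), whose protein brings clients to HSP70, had 1.05 and 1.49 scaled TPM in wild-type hearts against 2.98 and 1.51 in heterozygous hearts. Wild-type heart 2 and heterozygous heart 2 were nearly equal, and in the TPM as deposited the genotypes overlapped. The means were 1.27 ± 0.314 and 2.25 ± 1.05 (SD, n = 2), with a log2 fold change of 0.48 ± 0.24 (SE; limma, adjusted p = 0.448). It was 0.15 without heterozygous heart 1 and 0.82 without heterozygous heart 2. Hsp90aa1 (chr12:110690605-110702728, minus strand), the inducible cytosolic HSP90, had 6.84 and 7.87 scaled TPM in wild-type hearts against 11.5 and 7.09 in heterozygous hearts. The genotypes overlapped, since heterozygous heart 2 lay between the wild-type hearts. The means were 7.35 ± 0.726 and 9.30 ± 3.14 (SD, n = 2), the log2 fold change was 0.27 ± 0.23 (SE; limma, adjusted p = 0.631), and its sign turned without heterozygous heart 1 (-0.044) and in the TPM as deposited (-0.13). A share of 47.5% of its 50-base stretches is also in other genes, chiefly the pseudogene Gm12346, which was listed at 0.17 to 0.26 TPM.

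The constitutive genes were compared next. None passed the test, all 5 had a negative log2 fold change, and 4 of the 5 (Hspb1, Hspb6, Hspb7 and Cryab) were lowest in heterozygous heart 1, as 31.4% of all tested genes were. That number was 5 in the TPM as deposited and 3 with quantile normalisation. Hspa8 (chr9:40800984-40810087, plus strand) encodes the constitutive HSP70 of every cell. It had 132.5 and 159.6 scaled TPM in wild-type hearts against 138.9 and 129.2 in heterozygous hearts, so the genotypes overlapped and heterozygous heart 1 was not the lowest. Its means were 146.0 ± 19.2 and 134.0 ± 6.86 (SD, n = 2), and its log2 fold change of -0.12 ± 0.19 (SE; limma, adjusted p = 0.814) had the opposite sign with quantile normalisation (0.0059). Of its 50-base stretches, 39.4% are shared with other genes, among them the pseudogene Gm15459, listed at 1.21 to 2.66 TPM.

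Cryab (αB-crystallin; chr9:50751325-50756636, plus strand) protects desmin filaments and was the most abundant of the 10 genes in every heart. It had 621.2 and 696.5 scaled TPM in wild-type hearts against 536.5 and 653.1 in heterozygous hearts, where the second heterozygous heart fell inside the wild-type range. The means were 658.9 ± 53.2 and 594.8 ± 82.4 (SD, n = 2), with a log2 fold change of -0.15 ± 0.21 (SE; limma, adjusted p = 0.776), which was -0.010 without heterozygous heart 1 and -0.29 without heterozygous heart 2. Hspb1 (HSP25; chr5:135887919-135889563, plus strand), an actin-binding small heat shock protein that is also induced by heat, had 46.9 and 58.4 scaled TPM in wild-type hearts against 43.4 and 48.5 in heterozygous hearts. It was lowest in heterozygous heart 1, where the inducible genes were highest, and the promoter printed above held 2 element pairs. Its means were 52.6 ± 8.12 and 46.0 ± 3.58 (SD, n = 2; log2 fold change -0.19 ± 0.19 SE; limma, adjusted p = 0.695), its log2 fold change was -0.030 without wild-type heart 2 and -0.34 without wild-type heart 1, and 48.8% of its 50-base stretches are shared with the pseudogene Hsp25-ps1, listed at 0.74 to 3.27 TPM.

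Hspb6 and Hspb7 were the 2 constitutive genes for which both heterozygous hearts lay below both wild-type hearts, as 23.3% of all tested genes did. Hspb6 (HSP20; chr7:30552178-30555443, plus strand), a phosphorylated regulator of muscle contraction, had 55.9 and 50.8 scaled TPM in wild-type hearts against 41.7 and 44.2 in heterozygous hearts. The replicates were close, and the means of 53.3 ± 3.54 and 43.0 ± 1.77 (SD, n = 2) gave a log2 fold change of -0.30 ± 0.17 (SE; limma, adjusted p = 0.482). Hspb7 (cvHSP; chr4:141420779-141425311, plus strand), a cardiovascular small heat shock protein of the sarcomere, had 45.5 and 50.8 scaled TPM in wild-type hearts against 31.5 and 44.8 in heterozygous hearts. Here heterozygous heart 2 was just below wild-type heart 1, and the means of 48.2 ± 3.77 and 38.1 ± 9.43 (SD, n = 2) gave a log2 fold change of -0.35 ± 0.22 (SE; limma, adjusted p = 0.520). It was -0.10 without heterozygous heart 1 and -0.60 without heterozygous heart 2. In the TPM as deposited, both heterozygous hearts were below both wild-type hearts for all 5 constitutive genes, but so they were for 67.8% of all tested genes, whose median log2 difference was itself -0.35 there.

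**Figure D2:**
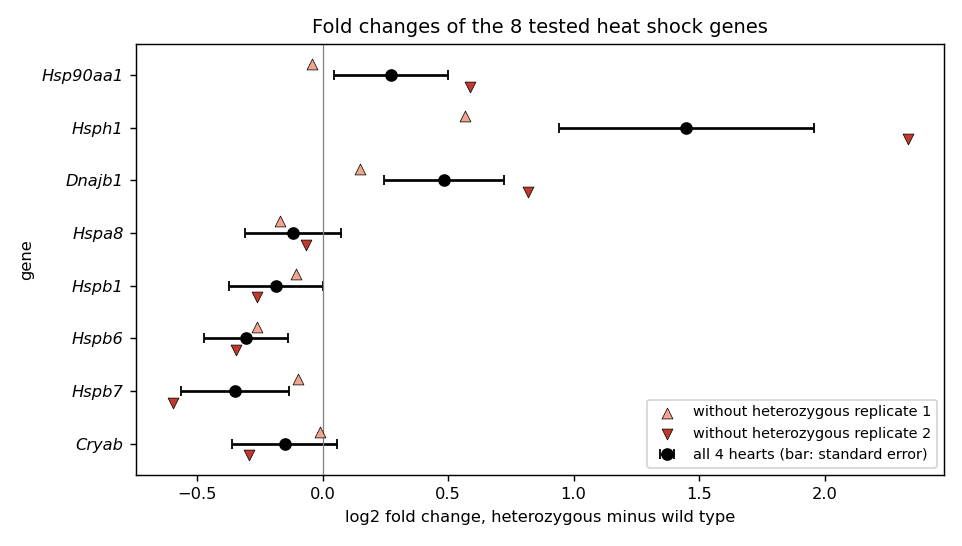
Log2 fold change (heterozygous minus wild type, on the log2(scaled TPM + 1) scale) of the 8 tested genes with all 4 hearts (circles, bars give the standard error) and without heterozygous replicate 1 or 2 (triangles). Hsph1 moves from 0.57 to 2.33 depending on which heterozygous heart is left out, and Hsp90aa1 is at -0.044 without replicate 1.

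Inducible and constitutive genes were then compared within each heart, where the scale of a library cancels only in part, since 1 is added before the log. The mean log2 level of the inducible genes minus that of the constitutive genes was -5.27 and -5.36 for wild-type hearts, and it was -4.10 and -5.03 for heterozygous hearts. Both heterozygous values were above both wild-type values, and heterozygous heart 2 was closer to the wild-type hearts than to heterozygous heart 1. The mean difference between genotypes was 0.75 with all hearts, 0.29 without heterozygous heart 1 and 1.21 without heterozygous heart 2. With all hearts it was 0.94 in the TPM as deposited, 1.01 without mitochondrially encoded genes and 0.70 with quantile normalisation. As a share of the summed scaled TPM of the 10 genes, the inducible genes made up 1.47% and 1.35% in wild-type hearts against 5.20% and 1.76% in heterozygous hearts. Hsph1 carried most of that share in heterozygous heart 1, with 28.0 of 43.5 scaled TPM.

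**Figure D3:**
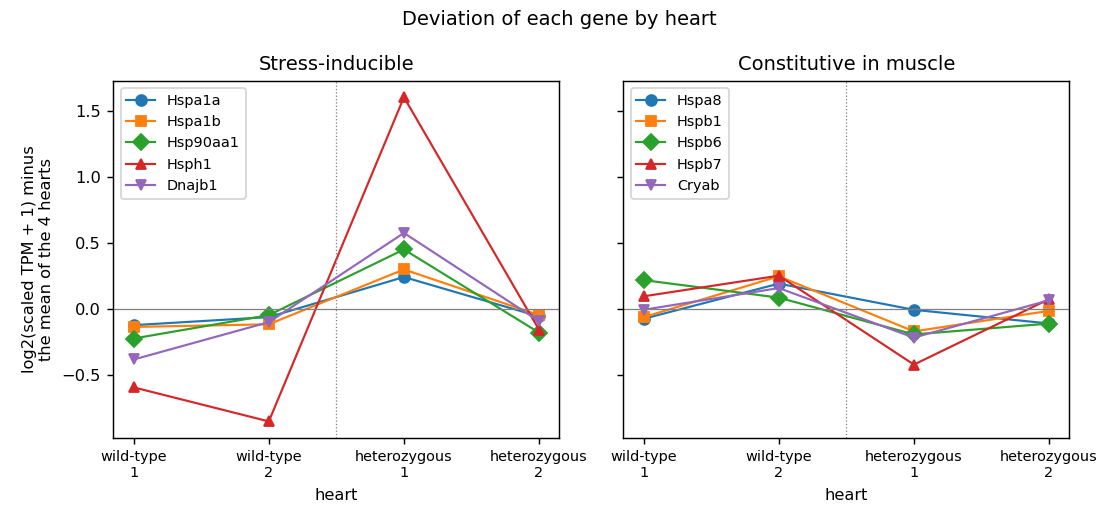
Deviation of each gene from its mean over the 4 hearts, as log2(scaled TPM + 1), for the 5 inducible genes (left) and the 5 constitutive genes (right). All 5 inducible genes have their highest point in heterozygous heart 1 (in the TPM as deposited, all but Hsp90aa1), where Hsph1 deviates by 1.61 and the others by 0.24 to 0.58, and heterozygous heart 2 lies below 0 for all 5.

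Ratios between partner genes of the same heart do not depend on the library factor. Per 100 TPM of the constitutive Hspa8, Hsph1 had 4.01 and 2.68 TPM in wild-type hearts against 20.2 and 5.84 in heterozygous hearts. On the same base Hspa1b had 0.0486 and 0.0497 against 0.317 and 0.103, and Dnajb1 had 0.791 and 0.935 against 2.15 and 1.17. Hspa1a had 0.118 and 0.129 against 0.352 and 0.163 per 100 TPM of Hspa8. All 4 ratios were higher in both heterozygous hearts, but they share their denominator and are not separate evidence. Inducible Hsp90aa1 per 100 TPM of its constitutive paralogue Hsp90ab1 was 12.4 and 11.0 in wild-type hearts against 17.2 and 13.1 in heterozygous hearts, and this pair was apart although Hsp90aa1 alone was not. Hsph1 per 100 TPM of its constitutive relative Hspa4 was 92.3 and 76.9 against 522.3 and 139.5. Among small heat shock genes, Hspb7 per 100 TPM of Cryab was 7.32 and 7.30 in wild-type hearts against 5.86 and 6.86 in heterozygous hearts. The ratios of Hspb1, Hspb6, Hspb7 and Cryab to Hspa8 overlapped between the genotypes.

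Over all 10 genes by scaled TPM, both heterozygous hearts lay outside both wild-type hearts for 6 (4 of the 8 tested), which were Hspa1a, Hspa1b, Hsph1 and Dnajb1 above and Hspb6 and Hspb7 below. Among all tested genes 47.0% were apart, 23.7% with the heterozygous hearts higher and 23.3% lower. The median log2 fold change was 0.48 over the 3 tested inducible genes and -0.19 over the 5 constitutive genes, against -0.0047 over all tested genes. With each heart left out in turn, the inducible median ran from 0.15 (without heterozygous heart 1) to 0.82 (without heterozygous heart 2), and the constitutive median from -0.29 (without heterozygous heart 2) to -0.070 (without wild-type heart 2). The contrast of the groups is described by these counts and medians and was not tested as a list.

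Other genes of the chaperone system were read from lists of related genes, and no gene in any list was called. Among other HSP40 genes, 6 of 10 tested genes were higher in both heterozygous hearts and 2 lower, beside 23.7% and 23.3% of all tested genes. The median log2 fold change of the list was 0.15. In the TPM as deposited the list counts turned to 1 higher and 5 lower, beside 2.32% and 67.8% of all tested genes on that scale. The list median there was -0.25 against -0.35 for all genes. The gene with the smallest p was Dnaja1, a J-domain partner of Hspa8 that is also heat-inducible. Dnaja1 had 5.28 and 5.22 scaled TPM in wild-type hearts against 14.1 and 8.05 in heterozygous hearts, so it was highest in heterozygous heart 1 like the inducible genes. Its log2 fold change was 0.91 ± 0.25 (SE; limma, adjusted p = 0.335). One further gene of the list, Dnajb5, was under an unadjusted p of 0.05 and was named after its values were seen, with 9.43 and 11.0 against 18.4 and 12.2 scaled TPM.

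None of the heat shock factor genes passed the test. Hsf1, the main activator of the inducible genes, had 9.55 and 8.68 scaled TPM in wild-type hearts against 9.47 and 9.86 in heterozygous hearts, which overlapped. The activity of the HSF1 protein is set mainly after translation, which RNA levels do not show. Of 4 tested genes in the list, none was under an unadjusted p of 0.05, and the smallest p belonged to Hsbp1, a small protein that binds HSF1 (18.2 and 19.0 against 13.5 and 15.2 scaled TPM; limma, adjusted p = 0.413). The other HSP70 and HSP110 genes also held none of 6 under that p, with a median log2 fold change of 0.061 and Hspa14 as the gene with the smallest p (limma, adjusted p = 0.510). Among other HSP90 genes and cochaperones, 4 of 14 tested genes were higher in both heterozygous hearts and 1 was lower, beside 23.7% and 23.3% of all tested genes. In this list Ahsa2 alone was under an unadjusted p of 0.05. Ahsa2, a relative of the HSP90 ATPase activator Ahsa1, was at 9.62 and 9.33 against 13.6 and 14.3 scaled TPM (log2 fold change 0.52 ± 0.14 SE; limma, adjusted p = 0.335). It was not highest in heterozygous heart 1, and in the TPM as deposited the genotypes overlapped. Hsp90ab1, the constitutive HSP90, had 55.2 and 71.2 against 67.0 and 53.9 scaled TPM and overlapped.

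Bag3, an HSP70 exchange factor that acts with Hspb8 in clearing damaged muscle proteins and is itself heat-inducible, had 20.5 and 24.9 scaled TPM in wild-type hearts against 30.5 and 23.1 in heterozygous hearts. It was highest in heterozygous heart 1 by scaled TPM and in wild-type heart 2 in the TPM as deposited, and the genotypes overlapped (limma, adjusted p = 0.657). In its list of exchange factors and ubiquitin-linked genes, 1 of 10 tested genes was higher in both heterozygous hearts and 5 were lower, beside 23.7% and 23.3% of all tested genes. The smallest p of that list was that of Hspbp1 (limma, adjusted p = 0.412). Hspb8 had 35.4 and 39.2 against 26.0 and 33.9 scaled TPM, below both wild-type hearts in both heterozygous hearts (limma, adjusted p = 0.509), like Hspb6 and Hspb7. In the list of other small heat shock genes, 0 of 3 tested genes were higher in both heterozygous hearts and 1 was lower. Hspb2 had 41.1 and 41.2 against 33.7 and 53.1 scaled TPM. Its gene model overlaps that of Cryab by 1030 bases on the opposite strand, and 13.3% of the 50-base stretches of Cryab are also in Hspb2. Whether strand was used in counting was not given in the sources used here, so reads in that overlap could belong to either.

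Chaperones of the endoplasmic reticulum serve secreted and membrane proteins and answer to a separate stress pathway. The list of these chaperones together with stress genes of that pathway was mostly lower in heterozygous hearts. Of 15 tested genes, 12 were lower in both heterozygous hearts and 0 higher (1 with upper quartile scaling), beside 23.3% and 23.7% of all tested genes. Under an unadjusted p of 0.05 (limma) there were 6, all lower. Of all 10036 tested genes, 12.2% were under that p in either direction, and 573 genes were lower. The median log2 fold change of the list was -0.28, and it was -0.25 relative to all genes in the TPM as deposited. The stress genes Atf4 and Ddit3 and the chaperone gene Serpinh1, named after their values were seen, overlapped by scaled TPM. Their log2 fold changes were 0.031, 0.087 and 0.015. Hspa5 (BiP), the HSP70 of this compartment, had 34.0 and 40.2 scaled TPM in wild-type hearts against 25.5 and 19.4 in heterozygous hearts, with a log2 fold change of -0.71 ± 0.20 (SE; limma, adjusted p = 0.335). Per 100 TPM of Hspa8 it had 25.6 and 25.2 against 18.4 and 15.0. Herpud1, which takes part in the degradation of misfolded proteins there, had the smallest p, with 30.6 and 25.9 against 17.9 and 17.8 scaled TPM (limma, adjusted p = 0.335). Both genes were as low or lower in heterozygous heart 2 as in heterozygous heart 1.

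The counts of the next lists stand beside 23.7% of all tested genes higher in both heterozygous hearts and 23.3% lower. Mitochondrial chaperones and proteases were higher in both heterozygous hearts for 2 and lower for 5 of 10 tested genes, and Trap1, the mitochondrial HSP90, had the smallest p (limma, adjusted p = 0.412). The cytosolic chaperonin, which folds actin and tubulin, was split, with 2 higher and 2 lower of 8 tested genes, and Cct3 had the smallest p (limma, adjusted p = 0.372; its genotypes overlapped in the TPM as deposited). Immediate early genes are transcription factors and regulators switched on within minutes of a stimulus and were read beside the inducible genes. Of 10 tested, 2 were higher in both heterozygous hearts and 5 lower, with Egr1 alone under an unadjusted p of 0.05. Fos had 0.184 and 0.318 scaled TPM in wild-type hearts against 0.661 and 0.177 in heterozygous hearts. Jun had 1.86 and 1.56 against 2.41 and 1.57, and Dusp1 had 7.39 and 11.2 against 11.9 and 7.29 scaled TPM. These 3 genes were highest in heterozygous heart 1 by scaled TPM, Fos alone also in the TPM as deposited, and all overlapped between the genotypes. Of the same list, Nr4a1 and Klf4, named after their values were seen, were also highest there by scaled TPM. Nr4a1 had 1.86 and 3.48 against 5.06 and 3.19 and overlapped, while Klf4 had 2.67 and 2.66 against 4.82 and 3.04 scaled TPM and was apart, though not in the TPM as deposited. Egr1 went the other way, with 1.81 and 2.36 against 1.42 and 1.15 scaled TPM (limma, adjusted p = 0.372), and Atf3, below the minimum level, had 0.515 and 0.540 against 0.709 and 0.775, apart by scaled TPM and overlapping in the TPM as deposited. Their part in the inducible values was not tested. In the TPM as deposited, no tested gene of these lists other than the HSP40 list was higher in both heterozygous hearts.

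**Figure D4:**
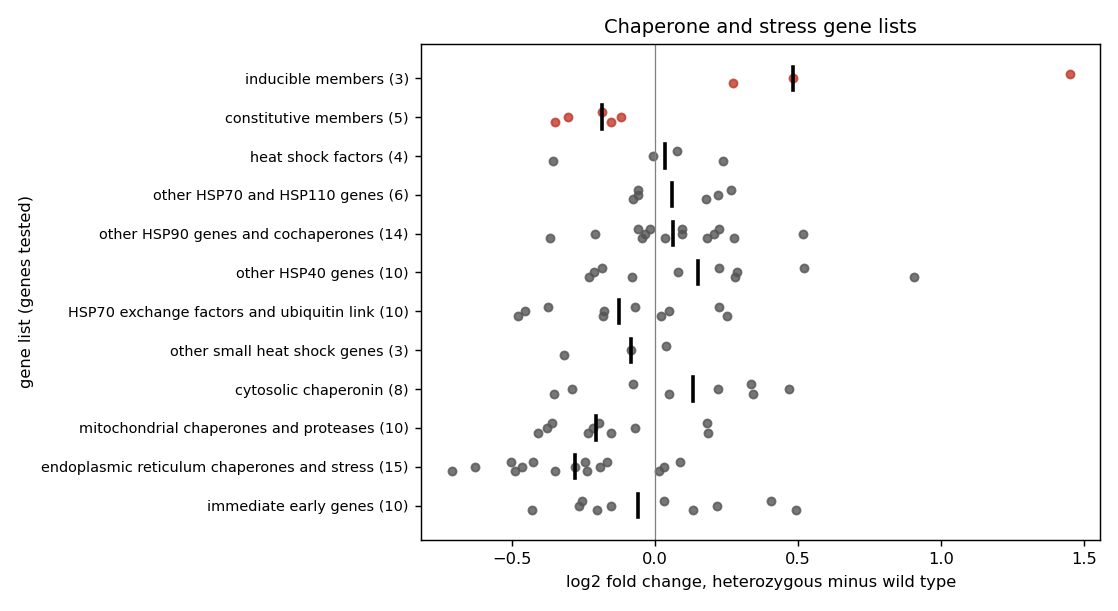
Log2 fold change (heterozygous minus wild type) of each tested gene, 1 point per gene, by list, with the number of genes tested in brackets and the list median as a vertical bar. The inducible genes have a median of 0.48 and the endoplasmic reticulum list one of -0.28, and the point farthest right is Hsph1 at 1.45.

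Markers of other cell types were read across the same hearts, and fewer cells of a type and less RNA per cell cannot be told apart in whole tissue. Heterozygous heart 1, in which the inducible genes were highest, did not have the highest summed level of cardiomyocyte (6 genes), atrial (4), fibroblast (5), smooth muscle and pericyte (5), macrophage (5), neutrophil (4), erythroid (5), skeletal muscle (6), endothelial (5) or adipocyte (4) markers. It had the lowest sum in 7 of the 10 lists, all but atrial, erythroid and endothelial, and 4 of the 5 constitutive heat shock genes were also lowest there. Among those lists, no neutrophil or adipocyte marker reached a mean of 1 scaled TPM, and only 3 of the 6 skeletal muscle markers did. The part of the markers of all these lists in the constitutive values was not tested. Fibroblast markers summed to 40.5 and 59.6 scaled TPM in wild-type hearts against 32.6 and 39.2 in heterozygous hearts. That sum was lower in both heterozygous hearts, but of its 5 markers only 2 were lower in both, and 0 were higher in both. Macrophage markers summed to 18.1 to 18.5 scaled TPM in wild-type and 15.2 to 21.1 in heterozygous hearts, and endothelial markers to 249.9 to 251.0 and 286.2 to 329.1. The endothelial sum was thus higher in both heterozygous hearts, but of its 5 markers 2 were higher in both and 2 lower in both. The part of the endothelial markers in the inducible values was not tested. Atrial markers ranged from 806.4 to 2354 scaled TPM in wild-type and from 1918 to 3281 in heterozygous hearts, so atrial marker RNA differed between the hearts within both genotypes. Erythroid markers reached 2120 in heterozygous heart 2 and lay between 929.8 and 987.0 in the other hearts. Of the skeletal muscle markers, Myh1 and Myh4 were listed at 0 in all hearts, and so was Retnlg of the neutrophil markers.

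The tested genes outside the followed set of heat shock genes were searched for profiles near the mean of Hspa1a and Hspa1b. The 5 nearest over the 4 hearts, by Euclidean distance between centred log2 values, were P2rx4, Adgra2, Phactr2, Wdr18 and Ctr9. Their distances were 0.030 to 0.037. These distances depend on the 1 added before the log, which flattens low genes. Heterozygous heart 1 was 2.33 times heterozygous heart 2 for Hspa1a and 3.31 times for Hspa1b in scaled TPM. With 1 added the gaps were only 0.30 and 0.35 log2. P2rx4, a purine receptor, had 5.79 and 5.83 scaled TPM in wild-type hearts against 7.74 and 6.12 in heterozygous hearts. With 4 hearts and 10036 genes many profiles lie close to any other, and the likeness is a description.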

How the data were processed

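RNA-seq libraries from hearts of 2 wild-type and 2 heterozygous mice were compared. The deposited values are TPM that the authors computed with RSEM after trimming (Trim Galore) and alignment with STAR to mm10, rounded to 2 decimals. They keep no counts, so counting error is unknown. TPM were divided by median-of-ratios factors (1.09 and 1.26 for wild type, 0.818 and 0.903 for heterozygous) computed over tested genes above 0 in all libraries. Genes whose mean TPM reached 1 were fitted as log2(scaled TPM + 1) with limma 3.58.1 in R 4.3.3 (empirical Bayes with trend, 2 groups, no covariate). Calls required an adjusted p below 0.05 together with more than a 1.5-fold difference. A pseudocount of 1 understates differences of low genes, Hspa1a and Hspa1b above all. The fit was run on simulated data with the same spread for every gene and an equal change in both heterozygous hearts. Genes such as Hsph1, whose heterozygous hearts differ, are unlike that setting, so the run says nothing about their p-values. Shared sequence was counted as 50-base stretches of GENCODE M21 transcripts, and coordinates are from that annotation. Named genes were the 10 heat shock genes, the gene with the smallest p of each list, Hsf1, Hsp90ab1, Bag3, Hspb2, Hspb8, Hspa5, 5 immediate early genes and the 5 nearest profiles. The heat shock genes and all lists were chosen with earlier results of these data known. Alternatives were other pseudocounts, filters, scalings and eBayes options, a replicate block, the sum of Hspa1a and Hspa1b, and leaving out each heart.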

Additional observations from a re-analysis of the deposited data

How the results depend on the processing

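Of 151 alternative values of the 10 heat shock genes, 145 kept direction and side of the threshold. Part of this was fixed in advance, because the filters, the replicate block and the eBayes options leave a log2 fold change as it is. The sum of Hspa1a and Hspa1b likewise leaves the other genes as they are. Hspa1a and Hspa1b had a p-value only without the filter, so elsewhere they could not change side. Hsph1 passed the rule without heterozygous replicate 2 (adjusted p = 0.0342, limma), so that 0 to 1 heat shock genes were called over the fits leaving out a heart. Under an unadjusted p of 0.05 there was 1 in the fit reported (beside 12.2% of all tested genes). In the other fits of all 4 hearts there were 4 in the TPM as deposited (beside 33.8%) and 6 without mitochondrially encoded genes (beside 29.6%). The number was 0 without a filter (beside 8.74%) or with robust eBayes (beside 12.8%), and 1 in the rest. Over the settings with all hearts the log2 fold change of Hsph1 was 1.06 to 1.59, and 0.57 to 2.33 with a heart left out. Hsp90aa1 reversed in the TPM as deposited (-0.13), without mitochondrially encoded genes (-0.030) and without heterozygous replicate 1 (-0.044), with 0.59 as its highest value with a heart left out. Hspa8 reversed with quantile normalisation (0.0059) and without wild type replicate 2 (0.016), down to -0.25 with another heart left out. The cause was not tested. The difference of inducible minus constitutive genes between genotypes kept its sign, from 0.52 (pseudocount 5) to 1.08 (pseudocount 0.1) with all hearts and from 0.29 to 1.21 with a heart left out. Over all genes, 2 were called in the fit reported, 4 with a pseudocount of 0.1, 0 of 24424 without a filter (2134 at an unadjusted p under 0.05), 13 in the TPM as deposited, 14 without mitochondrially encoded genes, 5 with robust eBayes and 11 to 17 with a heart left out, where the lone heart of a group is assumed to vary like the other group. With the replicate block 10 genes were called, and no heat shock gene (Hsph1 adjusted p = 0.205, limma). The replicate numbers name different mice and gave a correlation of deviations of 0.10 over 2 pairs, so they are not taken as pairs. Unknown depth limits Hspa1a and Hspa1b most.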

Other observations

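Hsph1 stood so far from the other inducible genes that its nearest profiles were looked up as well, a search added after seeing the data. It covered the tested genes outside the followed set of heat shock genes. The nearest were Stab1, Ccdc191, Gm30556, Riiad1 and Mynn, at distances of 0.26 to 0.90 on the log2 scale. Stab1, a scavenger receptor of endothelial cells and macrophages, had 33.7 and 30.4 scaled TPM in wild-type hearts against 145.2 and 53.7 in heterozygous hearts. Ccdc191, a coiled-coil gene, had 2.18 and 1.96 scaled TPM in wild-type hearts against 21.8 and 3.09 in heterozygous hearts. The followed heat shock genes were left out before ranking, so their absence from the 5 says nothing about Hsph1. The likeness over 4 hearts is a description.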
